A study of Homo sapiens with 4 samples.

Results

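FOXK2 binding was examined at 10 genes that mark the ovarian and fallopian tube lineages, namely PAX8, WT1, MUC16, MSLN, FOLR1, EMX2, SOX17, MECOM, ESR1 and PGR. The members were taken by name, as every peak whose deposited gene name was 1 of these 10, out of 20056 protein-coding genes of the RefSeq table. They held 12 of the 12471 peaks of replicate 1 and 23 of the 27281 peaks of replicate 2. The peaks came from FOXK2 ChIP-seq of OVCAR5, an established ovarian cancer cell line from ascites that the labels describe as high grade serous, for which the labels name no treatment or genetic change, in 2 replicates with an antibody to FOXK2. The study's methods call the replicates biological. The 2 matching input libraries, chromatin sequenced without an antibody, were not analysed here. All libraries came from 1 cell line, and peak lists carry no expression, so whether these cells express the lineage genes was not measured.

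FOXK2 is a forkhead transcription factor that recognises the heptamer TGTTTAC. PAX8, SOX17, EMX2, WT1 and MECOM are transcription factors of the embryonic ducts and epithelia from which the tube and related tissues arise, ESR1 and PGR are the nuclear receptors for estrogen and progesterone, and MUC16, MSLN and FOLR1 are cell-surface antigens of serous tumors. A transcription factor can bind at the start of a gene or far from it, in introns or between genes, and a peak list assigns each site to the gene with the nearest transcription start site (TSS), which need not be the gene it acts on.

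Of the 10 genes, 4 had a peak in replicate 1 (WT1, SOX17, MECOM and ESR1) and 7 in replicate 2 (the same 4 with FOLR1, EMX2 and PGR). Among all protein-coding genes, 31.3% had a peak in replicate 1 and 51.7% in replicate 2. A peak in both replicates was found for 4 of the 10, beside 28.6% of all protein-coding genes, and peaks that overlapped between replicates for 3 of the 10 (MECOM, WT1 and ESR1), beside 25.5%. With 10 genes, these counts lie near the background and are given as a description. PAX8, MUC16 and MSLN had no assigned peak in either replicate.

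Scores were ranked within each list, and the score percentile is the percent of the list with a lower score, with tied peaks placed at the middle of their shared range. The 12 member peaks of replicate 1 ran from the percentile of 12.2 to 79.3 with a median of 68.0, and the 23 of replicate 2 from 4.64 to 88.5 with a median of 68.9. No member peak reached the percentile of 90 in its list. The medians followed MECOM, which held 6 of the 12 peaks and 11 of the 23. Without it, the medians were 21.9 in replicate 1 and 40.7 in replicate 2.

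**Figure D1:**
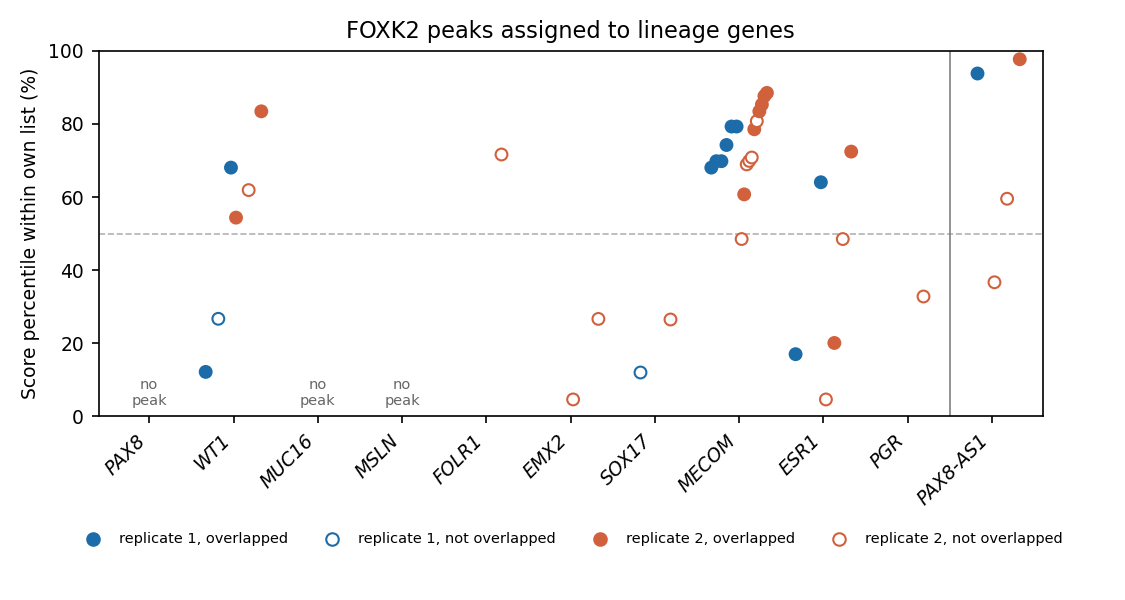
Score percentile within its own list (vertical axis, percent) of every FOXK2 peak assigned to each lineage gene, replicate 1 in blue and replicate 2 in orange, filled where a peak of the other replicate overlapped it; the dashed line is the middle of each list, and PAX8-AS1, the antisense RNA gene inside PAX8, is shown to the right of the line. MECOM carried most of the overlapped peaks among the lineage genes, and the peak with the highest percentile in each replicate stood under PAX8-AS1, at 93.9 and 97.7.

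MECOM, the gene of the zinc finger factors MDS1-EVI1 and EVI1, lies on the minus strand at chr3:169083499-169663775 (hg38) and had the most peaks of the 10 genes. It had 6 peaks in replicate 1, where 22 protein-coding genes had more, and 11 in replicate 2, where 20 had more. The median gene with a peak had 1. All 6 replicate 1 peaks overlapped a replicate 2 peak, by 163 to 210 bp. The MECOM percentiles ran from 68.0 to 79.3 in replicate 1, all above the middle of the list, and from 48.5 to 88.5 in replicate 2, where 1 peak lay below the middle.

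The promoter peak of MECOM was the only one of the 10 genes to be found in both replicates, beside 9.3% of all protein-coding genes. It lay at chr3:169147461-169147671 in replicate 1, 168 bp downstream of the nearest TSS, with a score of 7.36 and rank 3872 (percentile 68.0). In replicate 2 it lay at chr3:169147508-169147764, 98 bp downstream, with a score of 15.3 and rank 3113 (percentile 88.5). If HOMER's default scaling was used, these scores correspond to 39 tags (95% Poisson interval 27.7 to 53.3) and 103 tags (84.1 to 124.9), intervals that cover counting error only. This start is the internal one from which the shorter EVI1 form is transcribed. No peak of either replicate lay at the distal start of the longer form. The nearest to it, in replicate 2, was 28873 bp downstream, in intron 1.

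The other shared MECOM peaks were away from starts. A peak in intron 1, 4785 bp upstream of the internal start in replicate 1, scored 7.55 in replicate 1 and 13.8 in replicate 2 (percentiles 69.8 and 85.3). A peak in the last intron, intron 15, scored 8.87 and 14.9, the highest MECOM percentile of replicate 1 (79.3) and 87.6 in replicate 2. A peak within an AmnSINE1 repeat of intron 1 tied for the highest in replicate 1, at a score of 8.87, but was at the percentile of 60.7 in replicate 2, with a score of 8.48. The remaining 2 lay in an L1PA7 element of intron 1 (scores 7.55 and 11.6, percentiles 69.8 and 78.5) and beyond the gene's end (scores 8.11 and 13.1, percentiles 74.2 and 83.4). The latter was 119178 bp downstream of its assigned TSS by the replicate 1 peak. Ranks of the 6 sites therefore did not keep one order across the replicates.

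Part of the MECOM peaks held the forkhead heptamer. TGTTTAC, sought on either strand no more than 100 bp from the centre of a peak, occurred in 4 of 6 MECOM peaks of replicate 1 (66.7%, Wilson 95% interval 30.0% to 90.3%) and in 6 of 11 of replicate 2 (54.5%, 28.0% to 78.7%), beside 30.5% and 28.2% of all peaks, which lie inside these intervals. The 4 replicate 1 copies were the same genomic sites as 4 of the 6 in replicate 2. Of the 10 occurrences in peaks, 9 had their middle within 20 bp of the peak centre, and the promoter peak of replicate 1, at 64 bp, was the exception. The 4 sites found in both replicates and the 2 of replicate 2 alone are shown with 11 bases to each side, 5′ to 3′ on the strand of the heptamer, which is in capitals (hg38).
MECOM promoter, chr3:169147616-169147644, minus strand: tccccattggtTGTTTACccggagaaatc
MECOM intron 1, chr3:169152502-169152530, plus strand: ggattcaggcaTGTTTACtctcctattcg
MECOM intron 15, chr3:169085986-169086014, minus strand: cattttgtcttTGTTTACagacagtggaa
MECOM intron 1 in L1PA7, chr3:169568575-169568603, minus strand: cctggtggcttTGTTTACactgtgagggg
MECOM intron 1, replicate 2 alone, chr3:169273667-169273695, plus strand: agtaatctgcaTGTTTACtgcgtcaacat
MECOM intron 1, replicate 2 alone, chr3:169634868-169634896, minus strand: ttaagaagccgTGTTTACtttttggattt
The flanks differ from site to site, and the heptamer was followed by A in 2 of the 6.

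**Figure D2:**
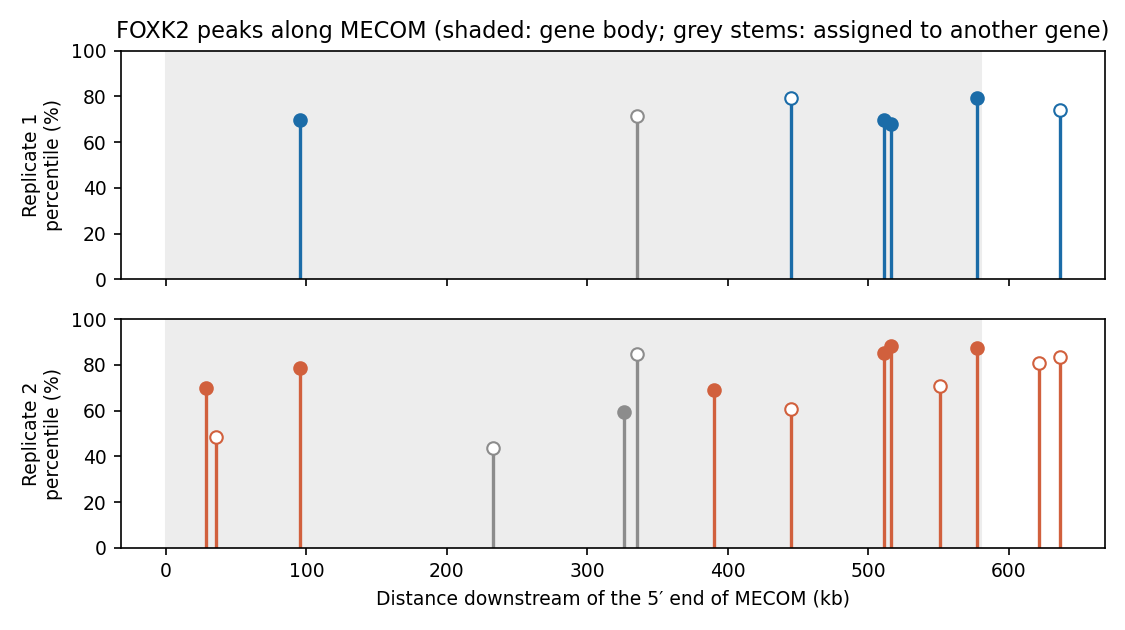
Position of FOXK2 peaks along MECOM as distance downstream of its 5′ end (horizontal axis, kb; the gene body is shaded) and their score percentile (vertical axis, percent) in replicate 1 (top) and replicate 2 (bottom). Filled heads mark peaks with TGTTTAC within 100 bp of the centre and open heads those without; grey stems are peaks in the gene body whose deposited name is another gene. Every MECOM peak of replicate 1 has a counterpart in replicate 2, which has 5 more.

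Further peaks inside MECOM carried the name of a noncoding gene, LOC105374205. There was 1 in replicate 1, at chr3:169328083-169328293 (score 7.73, percentile 71.4), and it overlapped 1 of 3 in replicate 2 (score 13.5, percentile 84.6). Counted by gene body, MECOM therefore held 6 peaks in replicate 1 and 12 in replicate 2.

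The L1PA7 peak of MECOM had a counterpart at ESR1. L1PA7 is a family of LINE-1 retrotransposons of primates, and an L1PA7 copy in intron 2 of ESR1 held a peak in replicate 2 alone (score 7.14, percentile 48.5). Across the lists, TGTTTAC lay within 100 bp of the centre in 56 of 56 peaks annotated to L1PA7 in replicate 1 (Wilson 95% interval 93.6% to 100%) and in 110 of 113 in replicate 2 (92.5% to 99.1%). How reads of 50 bp were placed among copies of such a repeat family was not tested.

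WT1, a zinc finger factor of the urogenital ridge and mesothelium, lies on the minus strand at chr11:32387775-32435564 and had 3 peaks in each replicate, of which 2 overlapped. The stronger pair lay 63959 bp (replicate 1) and 63878 bp (replicate 2) downstream of the annotated TSS, beyond the gene's end, with a score of 7.36 in replicate 1 (percentile 68.0) and 13.1 in replicate 2 (83.4). The weaker pair, also beyond the gene's end, was 44696 bp and 44530 bp from the TSS, scored 4.15 and 7.73 (percentiles 12.2 and 54.4), and shared 67 bp. Neither pair held TGTTTAC. The stronger peak of replicate 2 held 1 copy of the AP-1 site TGANTCA, in capitals in its sequence, on the plus strand. This copy spans chr11:32366958-32366964, and the overlapping replicate 1 peak ended inside it, at position 32366963. Another copy, at chr11:32386186-32386192, lay in the stretch that the weaker pair shared, and so in the peaks of both replicates.
WT1 downstream peak, chr11:32366811-32367067, plus strand: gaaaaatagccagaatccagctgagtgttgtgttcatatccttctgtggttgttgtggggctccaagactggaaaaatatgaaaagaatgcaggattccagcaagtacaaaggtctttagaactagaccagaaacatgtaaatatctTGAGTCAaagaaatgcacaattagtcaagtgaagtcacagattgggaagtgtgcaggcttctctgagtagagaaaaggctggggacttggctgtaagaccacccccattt
The third peak of replicate 1, at chr11:32400246-32400456 (score 4.72, percentile 26.7), was named as intron 4 but covered the start of a short WT1 transcript of GENCODE at position 32400351, and its TGTTTAC began at the adjacent base, 32400352. Among the 20 RefSeq promoter sequences matched to 7 members (250 bases before to 50 after a start, GRCh38.p14), TGTTTAC was in 1 of WT1 and in 1 of MECOM, beside 3.42% of all promoters of the table. The WT1 promoter with it belongs to a RefSeq start at position 32400400, which differs from the GENCODE one, and there the heptamer lies 42 bp downstream. The WT1 heptamer is shown with 11 bases to each side.
WT1 internal start, chr11:32400341-32400369, plus strand: cctcggcaagtTGTTTACcatctagacgg
Replicate 2 had no peak there. Of the 500 replicate 1 peaks nearest in rank, 61.2% were overlapped in replicate 2.

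PAX8, a paired box factor of the tube, kidney and thyroid, lies on the minus strand at chr2:113215997-113278921 and had no peak under its own name. The strongest peak of either replicate inside any of the 10 gene bodies was nevertheless in PAX8. It was named for the antisense RNA gene PAX8-AS1, whose TSS, 16925 bp from the replicate 1 peak, was the nearest in the deposited annotation. By GENCODE, a PAX8 transcript start lay 1875 bp from that peak. In replicate 1 it spanned chr2:113218497-113218707 with a score of 14 and rank 742 (percentile 93.9), and in replicate 2 chr2:113218478-113218734 with a score of 28.3 and rank 630 (97.7). The centres lay 7 bp and 3 bp inside the last exon of PAX8, exon 12 of the deposited annotation, so the shared stretch, 211 bases with both end positions counted, fell into 113 of the exon and 98 of the last intron. The intron side is shown because it is the part of this peak outside coding sequence and untranslated region.
PAX8 last intron, chr2:113218610-113218707, plus strand: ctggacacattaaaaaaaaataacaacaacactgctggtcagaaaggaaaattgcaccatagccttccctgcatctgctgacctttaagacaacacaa
No TGTTTAC lay within 100 bp of this peak's centre in either replicate, nor did the AP-1 site. Replicate 2 alone had 2 more peaks inside PAX8 under the same name, 1 at the start of PAX8-AS1 and 160 bp from a PAX8 transcript start of GENCODE (score 8.33, percentile 59.5) and 1 in intron 2 of PAX8 (score 6.1, percentile 36.7). No peak lay at the 5′ end of the PAX8 gene.

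EMX2, a homeobox factor of urogenital development, lies at chr10:117542445-117549546 and had no peak in replicate 1 and 2 weak intergenic peaks in replicate 2, 80461 bp and 64134 bp upstream (scores 5.35 and 3.87, percentiles 26.7 and 4.64). Its antisense neighbor EMX2OS had 2 peaks in each replicate, all overlapped. The stronger pair, 174329 bp from EMX2 in replicate 1, scored 5.85 in replicate 1 and 7.44 in replicate 2, near the middle of both lists (percentiles 49.1 and 51.4), and held TGTTTAC.
EMX2OS distal peak, chr10:117719140-117719168, plus strand: tctgtcttcctTGTTTACttagctgtttc
The weaker pair scored 3.96 and 5.5 (percentiles 7.54 and 28.9). The single WT1-AS peak, in replicate 2 alone, was at the percentile of 41.9, and no peak was assigned to MECOM-AS1 or PGR-AS1.

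SOX17, an HMG-box factor, had 1 peak in each replicate, at different places. The replicate 1 peak was 18921 bp downstream of the TSS (score 4.15, percentile 12.2) and the replicate 2 peak 52369 bp upstream (score 5.35, percentile 26.7). Since the sites differ, SOX17 counts as bound in both replicates only where peaks need not overlap. Neither peak held TGTTTAC. Of the peaks nearest in rank, 46.6% of those of replicate 1 and 13.4% of those of replicate 2 were overlapped in the other list.

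ESR1, the estrogen receptor alpha gene, lies on the plus strand at chr6:151656691-152129619 and had 2 peaks in replicate 1, both overlapped, and 4 in replicate 2. The stronger shared peak was in intron 2, 41602 bp upstream of the assigned TSS in replicate 1. It scored 6.98 in replicate 1 (rank 4348, percentile 64.04) and 10.3 in replicate 2 (rank 7424, percentile 72.4). It had a GC content of 59.7% within 100 bp of its centre in replicate 1, beside a median of 47.3% over the list. Its sequence, shown as the best-ranked ESR1 site, held neither TGTTTAC nor the 6-base core TGTTTA.
ESR1 intron 2, chr6:151763966-151764176, plus strand: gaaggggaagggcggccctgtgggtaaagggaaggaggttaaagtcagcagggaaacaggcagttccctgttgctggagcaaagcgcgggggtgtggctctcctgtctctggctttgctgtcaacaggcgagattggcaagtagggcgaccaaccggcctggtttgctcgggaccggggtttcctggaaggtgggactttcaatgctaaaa
The weaker shared peak was in intron 4, within a MIRb repeat, with scores of 4.34 and 4.91 (percentiles 17.0 and 20.1), and held TGTTTA but not the heptamer. The remaining replicate 2 peaks were the L1PA7 peak and 1 at the percentile of 4.64. A further replicate 1 peak inside ESR1, in intron 5 at chr6:152002424-152002634, carried the name SYNE1 (score 4.15, percentile 12.2) and was not overlapped. ESR1 starts were bare in both lists: by GENCODE, the nearest ESR1 transcript start was 21404 bp from a peak in replicate 1 and 12343 bp in replicate 2.

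PGR, the progesterone receptor gene, at chr11:101029624-101129813, had 1 peak, in replicate 2 alone and 58081 bp upstream (score 5.8, percentile 32.9), without TGTTTAC. In replicate 1 the nearest peak of any gene was 201435 bp from a GENCODE start of PGR. Of the receptor genes, ESR1 thus had sites under its own name in both replicates and PGR did not. Counted by territory, as defined below, PGR held 1 peak in replicate 1 and 3 in replicate 2. Of the 500 replicate 2 peaks nearest in rank to that of PGR, 15.8% were overlapped in replicate 1, so a site of this rank was seldom found in both lists.

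FOLR1, which encodes folate receptor alpha, had the second promoter peak among the members, in replicate 2 alone. It spanned chr11:72192053-72192309, 52 bp from the TSS, with a score of 10.1 (rank 7625, percentile 71.7), or 68 tags (52.8 to 86.2) under the same scaling. Promoter peaks in replicate 2 were found at 2 of the 10 genes, beside 21.2% of all protein-coding genes. Of the 500 replicate 2 peaks nearest in rank, 50.4% were overlapped in replicate 1, where the nearest peak was 77307 bp away.

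MUC16, which encodes the mucin CA-125, and MSLN, which encodes its binding partner mesothelin, had no peak in either list. For MUC16 (chr19:8848844-9010390) the nearest peak to a GENCODE transcript start was 407017 bp away in replicate 1 and 48748 bp away in replicate 2, where it was assigned to OR1M1 at the percentile of 9.03. That replicate 2 peak was 6613 bp from a more distal MUC16 start of RefSeq. For MSLN (chr16:760734-768865) the distance from a GENCODE start to the nearest peak was 19695 bp in replicate 1, where that peak was at the promoter of NARFL, and 32354 bp in replicate 2, where it was in HAGHL. A list of called peaks does not show how many reads lay below the calling threshold, so weaker signal at these genes was not measured.

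The length of genome nearest to each gene start differed widely among the members, and with it the number of peaks a gene could receive. Taken between the midpoints to the neighboring protein-coding gene starts, this territory ran from 20.4 kb for MSLN to 837 kb for MECOM, beside a median of 59.8 kb over all protein-coding genes. The lists held 4.11 peaks per megabase of the named chromosomes in replicate 1 and 8.998 in replicate 2. Over the 10 territories the density was 6.11 and 12.2 peaks per megabase, and without MECOM 4.84 and 9.68. With territories set by the starts of all genes, noncoding ones included, it was 0 and 8.94, so the excess over the list was not seen in that setting. The MECOM territory held 8 and 16 peaks, 9.56 and 19.1 per megabase, where the average of the list would give 3.44 and 7.53. Per megabase, WT1 was higher than MECOM in replicate 1, at 12.2, and PAX8 and FOLR1 in replicate 2, at 21.4 and 19.7.

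Other members divided by density. WT1 held 3 peaks in replicate 1 and 4 in replicate 2, against 1.01 and 2.22 at the average of the list. PAX8, whose territory takes in the PAX8-AS1 peaks, held 1 and 3 against 0.577 and 1.26. PGR held fewer than the average in both replicates, 1 against 2.44 and 3 against 5.33, although its territory was 593 kb long. For MSLN the average gives 0.0838 and 0.183 peaks, and for MUC16 0.524 and 1.15. These values are single counts of few peaks, with no test.

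**Figure D3:**
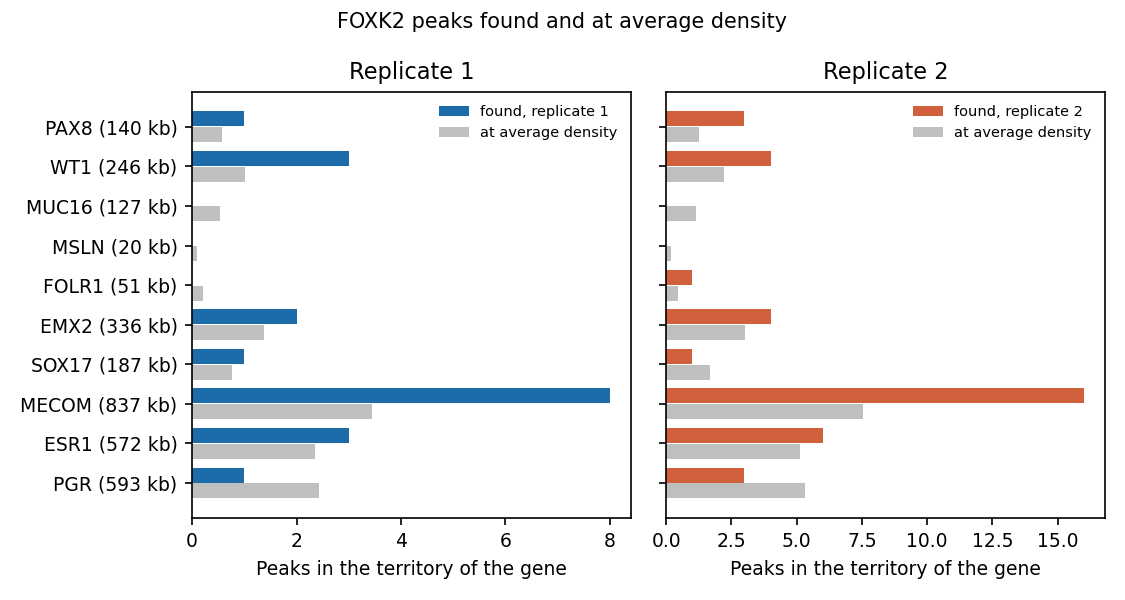
Number of FOXK2 peaks whose centre lay in the territory of each lineage gene (colored bars; territory length in kb beside the name) and the number that the average density of the list gives for that length (grey bars), for replicate 1 (left) and replicate 2 (right). MECOM stands above the average in both replicates, with 8 and 16 peaks, and PGR below it, with 1 and 3.

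In overlap and in motifs, the shares of the member peaks were near those of their lists. Of the 12 peaks of replicate 1, 10 were overlapped in replicate 2 (83.3%, Wilson 95% interval 55.2% to 95.3%), beside 74.9% of the list. Of the 23 of replicate 2, 10 were overlapped in replicate 1 (43.5%, 25.6% to 63.2%), beside 34.2%. All 10 pairs carried the same gene name in both lists. TGTTTAC was in 5 of 12 peaks (41.7%, 19.3% to 68.0%) and in 7 of 23 (30.4%, 15.6% to 50.9%), and outside MECOM in 1 of 6 and 1 of 12. Within 100 bp of the centre, TGANTCA was in 3 of 12 and 6 of 23, beside 20.8% and 21.0% of the lists. The copy in the weaker WT1 pair reached past that window in replicate 2 and is not among the 6. The intervals take in the value of the whole list in each case, and they cover counting error only, since peaks of 1 gene share their source.

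The member peaks lay far from the starts they were assigned to, but a long territory admits long distances. The members with the most peaks had territories of 837 kb (MECOM), 572 kb (ESR1) and 246 kb (WT1), beside the median of 59.8 kb. The lists below were not matched for territory, so whether the distances differ from those of genes with like territories was not tested. Peaks more than 10000 bp from the assigned TSS numbered 10 of 12 in replicate 1 (83.3%, 55.2% to 95.3%) and 20 of 23 in replicate 2 (87.0%, 67.9% to 95.5%), beside 57.1% and 62.1% of the lists. By the nearest GENCODE start of the same gene, internal starts included, they numbered 8 of 12 and 18 of 23, a count not made for the whole lists. The median distance to the assigned TSS was 52504 bp and 58081 bp, beside 16140 bp and 20161 bp. The intervals of replicate 2 and of its list did not meet, but peaks of the same gene are not independent and no test was run. By class, 7 of 12 and 11 of 23 were intronic, beside 39.0% and 40.6% of the lists, and 4 and 10 were intergenic, beside 34.1% and 36.5%. At promoters were 1 of 12 (8.33%, 1.49% to 35.4%) and 2 of 23 (8.70%, 2.42% to 26.8%), beside 21.7% and 17.998%. The median focus ratio, the fraction of tags on the expected side of the peak centre, was 0.795 and 0.787, beside 0.758 and 0.755.

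Among all 6785 genes with an overlapping peak in both replicates, ordered by the mean percentile of their best such peak, MECOM stood at position 2168 (mean 83.9, from different sites in the 2 replicates), WT1 at 3015 (75.7) and ESR1 at 3742 (68.2). DHRS7B was tied with MECOM, LINC01265 stood next above them, and LOC643072 and SLC36A4 next below, all with a mean of 83.9. DHRS7B had 1 peak in each replicate and SLC36A4 had 2, so the likeness is in the best percentile and not in the number of peaks, which was 6 and 11 at MECOM.

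The member counts were set beside 5 lists of related and contrasting genes. Of 15 genes of tubal and Mullerian epithelium, 7 had a peak in both replicates, beside 28.6% of all protein-coding genes, and 2 of them had promoter peaks in both, beside 9.3%. These were KRT8 (scores 10.2 and 19, percentiles 85.6 and 93.4) and KRT18 (5.47 and 9.52, percentiles 42.6 and 68.0), the keratin pair of simple epithelium. The best percentile of this list was at NR2F2, a nuclear receptor of developing mesenchyme and ducts, whose intergenic peak 272018 bp from its TSS in replicate 1 scored 21.7 and 31.8 (percentiles 98.2 and 98.3). PAX2, the closest relative of PAX8 in the list, had 1 weak peak in each replicate, which did not overlap.

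Of 10 genes of mesothelium and ovarian surface, 2 had a peak in both replicates and 8 in replicate 2, beside 28.6% and 51.7% of all protein-coding genes. None had a promoter peak in both. The best mean was at GATA6, whose best peaks were at different sites in the replicates (percentiles 71.4 and 90.03). Of 10 genes of ovarian stroma and granulosa cells, 3 had a peak in both, led by INHBA, which encodes a subunit of activin, with an intergenic peak 213676 bp upstream in replicate 1 (percentiles 93.1 and 94.4). FOXL2, the forkhead factor that defines granulosa cells, had no peak.

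Of 15 genes of gastrointestinal epithelium, 6 had a peak in both replicates, beside 28.6% of all protein-coding genes. Promoter peaks in both were found for 2, beside 9.3%. KLF5, a zinc finger factor of intestinal crypts and other epithelia, led the list with a promoter peak at scores of 16 and 37.3 (percentiles 95.9 and 98.8). CDX2, the intestinal homeobox factor, had a promoter peak in each replicate (percentiles 30.8 and 83.8), and these did not overlap. KRT20 and VIL1 had shared distal and intronic peaks (percentiles 78.1 and 94.99, and 59.7 and 85.3).

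Of 15 partners and targets of steroid receptors, 6 had a peak in both replicates, all overlapping and none at a promoter in both. FOXA1, the forkhead factor that opens chromatin for ESR1, led with percentiles of 88.1 and 90.9. Its best peak was distal, annotated to a 3′ UTR 48070 bp downstream of the FOXA1 TSS in replicate 1 and 48086 bp in replicate 2. The coactivator NCOA3 followed, with an intronic peak (83.4 and 93.9). In replicate 2, 11 of the 15 had a peak, beside 51.7% of all protein-coding genes. RARA (promoter peak, percentile 95.6), NRIP1, CCND1, TFF1 and XBP1 had peaks in replicate 2 alone. GREB1, an ESR1 target, had no peak in either, nor had NCOR1, EP300 and FKBP5. The shares of the 5 lists with a peak in both replicates, from 20% to 46.7%, lay on both sides of the 28.6% of all protein-coding genes, and none was tested.

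**Figure D4:**
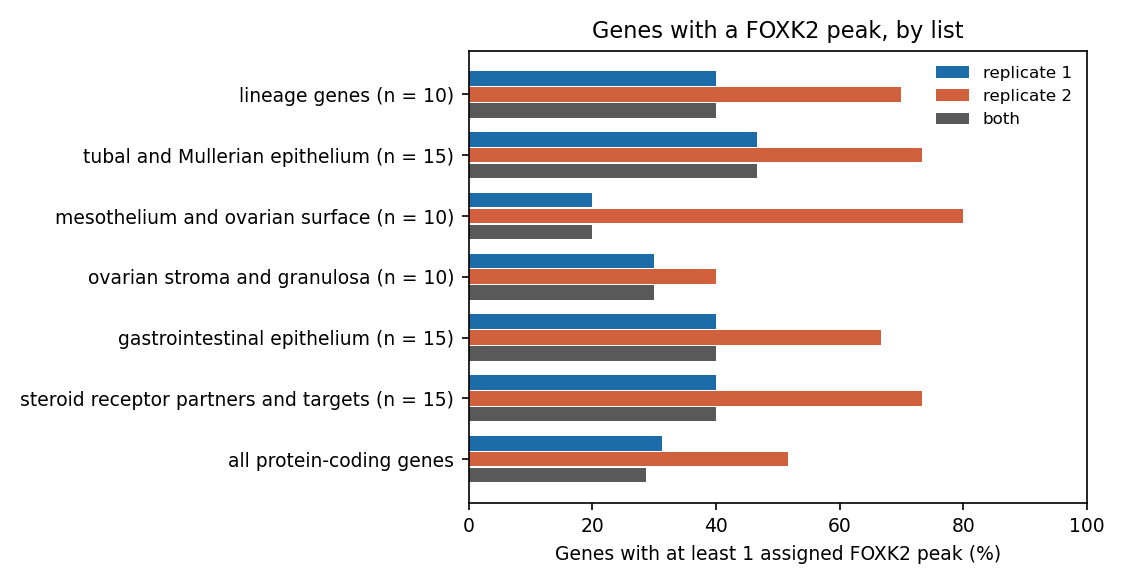
Percent of genes with at least 1 assigned FOXK2 peak (horizontal axis) in replicate 1 (blue), replicate 2 (orange) and both (grey), for the 10 lineage genes, 5 other gene lists and all protein-coding genes. The lineage genes stand at 4, 7 and 4 of 10, and every list has more genes with a peak in replicate 2 than in replicate 1.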

How the data were processed

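FOXK2 ChIP-seq of OVCAR5 cells was available as peak lists of 2 replicates. According to the methods and the submitters' processing notes, the authors aligned single-end reads of 50 bp to hg38 with Bowtie2 2.2.6 and called and annotated peaks per replicate with HOMER 4.10. Each deposited list gives a peak score, a focus ratio (a fraction deposited by the authors for each peak) and the distance to the nearest TSS, in bp, as the authors' annotation has it. Scores were compared within a list only. They were whole multiples of 0.189 in replicate 1 and 0.149 in replicate 2, to within rounding, which under HOMER's scaling to 10000000 tags gives 16 and 21 tags for the weakest peaks. Peaks span 210 and 256 bp, and lengths and overlaps in bp are end minus start, while lengths of sequence in bases count both end positions.

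The members and lists were chosen with earlier results of these data known. All 10 members are named, with scores and percentiles for each best-ranked peak and each overlapping pair. In the other lists, the genes named are those at whose promoter each replicate had a peak and the one with the best mean percentile. PAX2, FOXL2, KRT20, VIL1 and NCOA3 were chosen after their values were seen. So were the steroid receptor genes without a peak in replicate 1, and the peaks of other names inside the gene bodies. Peaks overlapped if they shared at least 1 bp. Background counts used 20056 RefSeq protein-coding genes (GRCh38.p14), matched by Entrez ID. Gene bodies, starts and territories came from GENCODE release 44. Motifs were matched exactly on both strands, and TGTTTA lies within TGTTTAC. Shares carry Wilson 95% intervals and tag counts exact Poisson intervals. No test between conditions was possible with a single condition. The overlap, motif, percentile and territory steps were tested on simulated data, where all 6 steps returned the planted values. Alternatives are given at the end. Scripts ran in Python 3.11.15, with pandas 2.3.3, numpy 2.4.6, matplotlib 3.10.9 and scipy 1.17.1. The input libraries were not analysed here.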

Additional observations from a re-analysis of the deposited data

How the results depend on the processing

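With 2 replicates of a single condition, the spread between replicates is poorly known. No paired analysis was possible because a single group, the FOXK2 libraries, had files. Leaving out MECOM was chosen after seeing the data, and the cause of a change was not tested for any setting. Of 94 alternative values, 57 stayed within the limits set for them, 37 moved and 0 reversed. Staying within the limits does not mean unchanged. With antisense and divergent RNA genes added, the members with a peak in both replicates rose from 4 to 6, which counted as within the limits.

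The count of 4 members with a peak in both replicates fell to 1 within 10000 bp of the TSS and with promoter peaks only, and ran from 4 to 7 with either replicate omitted. Member peaks numbered 2 and 3 in the replicates within 10000 bp, 15 in replicate 2 with the higher-scoring part of the list or with lists of equal length, and 6 and 12 without MECOM. All member peaks of replicate 1 (100%) were overlapped in the higher-scoring parts. The median percentile became 69.8 in replicate 1 and 72.4 in replicate 2 in the higher-scoring parts, 72.4 in replicate 2 with lists of equal length, 65.3 in replicate 2 within 100000 bp, 68.9 and 85.3 within 10000 bp, and 21.9 and 40.7 without MECOM. TGTTTAC was in 16.7% and 8.33% of member peaks without MECOM. The density was 3.86 and 7.72 peaks per megabase in the higher-scoring parts, beside 2.16 and 4.56 over those parts as a whole, and, with territories set by the starts of all genes, which shorten them, 0 in replicate 1 and 8.94 in replicate 2.

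For the lists of tubal, mesothelial, stromal, gastrointestinal and steroid receptor genes, the counts of genes with a peak in both replicates (7, 2, 3, 6 and 6) became 4, 0, 1, 2 and 0 within 10000 bp, again with no count over all genes. With promoter peaks only they became 2, 0, 0, 2 and 0, beside 9.3% of all protein-coding genes. The mesothelial count was 1 with overlapping peaks, beside 25.5%. With either replicate omitted the counts of the lists ran from 7 to 11, 2 to 8, 3 to 4, 6 to 10 and 6 to 11, beside 31.3% and 51.7%.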
